A study of Mus musculus with 2 samples.

Results

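The laminin, nidogen and fibronectin matrix genes described here are Lama1, Lama5, Lamb1, Lamb2, Lamc1, Nid1, Nid2, Hspg2, Fn1 and Sparc. They were found by exact gene name among the probes for mouse transcripts on a pair of one-colour microarrays. All 10 genes were present, with 15 of the 55681 probes, and all 10 were among the 25861 genes well above background on at least 1 array. The groups were EpiSC and ELA-EpiSC, with 1 array each. Both came from the mouse embryonic stem (ES) cell line E14Tg2A of strain 129/Ola, and both received FGF2 at 12 ng/mL together with Activin A at 20 ng/mL in chemically defined medium. EpiSC, epiblast stem cells, were made from ES cells directly, and ELA-EpiSC from floating Epiblast-Like Aggregates (ELA). Each RNA sample pooled 3 sets of experiments of this 1 cell line, so no comparison had a replicate and no p-value was possible. For EpiSC the source field speaks of Argonaute immunoprecipitation of cells at 0DIV, which goes against the title and description of total RNA. The titles were followed. The coating on which the EpiSC cultures grew is not given in the sources used here.

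Laminins are trimers of 1 alpha, 1 beta and 1 gamma chain that assemble into the sheet of a basement membrane, the thin matrix under an epithelium. Nidogens and perlecan link this sheet to the collagen IV network, fibronectin forms fibrils outside basement membranes, and Sparc is a secreted protein that binds collagen. In the early mouse embryo the epiblast rests on a basement membrane shared with the visceral endoderm, and the parietal endoderm lays down a thick laminin-rich membrane of its own.

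Perlecan, nidogen 2, fibronectin and the laminin beta 2 chain were the members with higher signal in ELA-EpiSC by more than 1 on the log2 scale. The alpha 1 chain was lower, and the alpha 5, beta 1 and gamma 1 chains, which assemble into 1 trimer, lay closer to no difference. Differences are log2 ELA-EpiSC minus EpiSC, on background-corrected and quantile-normalized signal, and the brightest probe stood for its gene. By this measure 4 of 10 members passed a difference of 1 upward and 0 of 10 downward. Among all 16653 genes whose mean log2 reached 7.5, 9.03% passed 1, of which 4.56% of genes upward in ELA-EpiSC and 4.47% downward. The median difference was 0.66 over the members and near 0 (0.0014) over all genes. The list was made with earlier results of these data known.

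The error of a single spot was taken from 234 probes printed 10 times whose mean log2 reached 7.5. The SD of their differences over these spots was 0.10 as a root mean square, here called the spot SD. It covers printing and scanning and neither labelling nor culture. Neither array held a saturated spot. Scaling mattered more than spot noise. Each of the 8 detected spike-in probes gave less signal with ELA-EpiSC, with a mean difference of -0.40 after background correction. Setting them equal moved the median of all genes to 0.62 and gave 3328 genes higher in ELA-EpiSC against 260 higher in EpiSC, so that 92.8% of those past 1 were higher in ELA-EpiSC, in place of 50.5%. Scaling to the median moved that share to 67.9% and the median of the genes to 0.15. Differences below are therefore relative to the bulk of the genes.

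**Figure D1:**
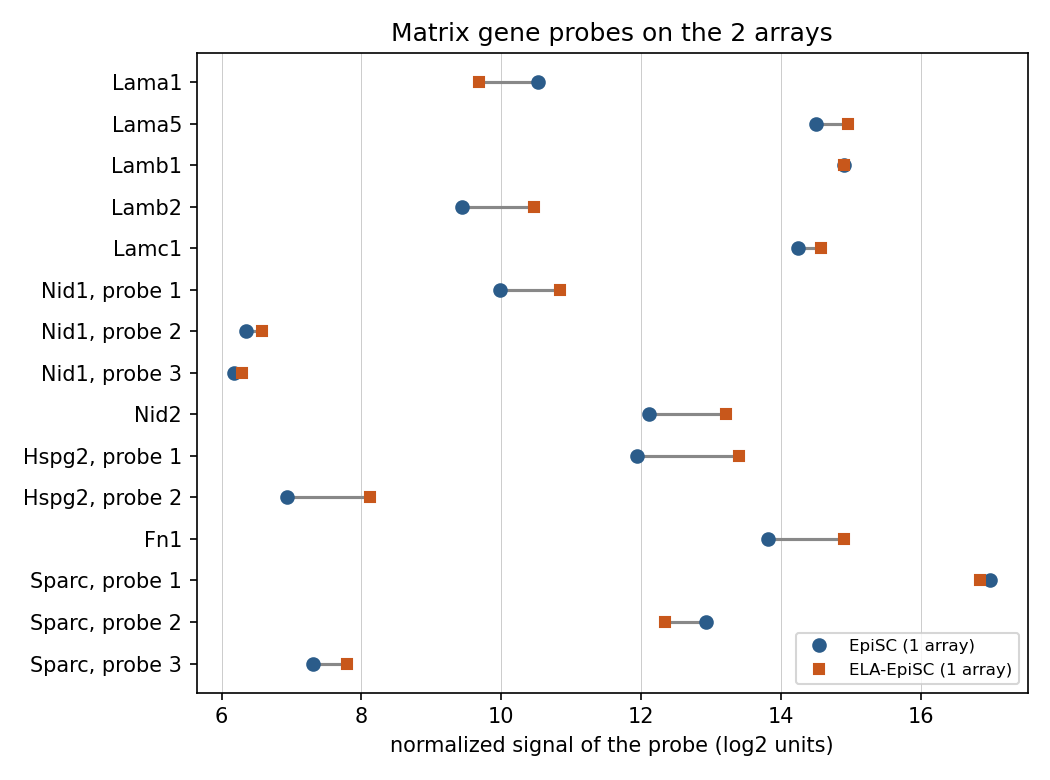
Normalized signal (log2 units) of each of the 15 probes on the EpiSC array (circles) and the ELA-EpiSC array (squares), 1 array per group, with probes of 1 gene numbered from brightest. Signals of different probes are not comparable with each other. Lama1 and the first pair of Sparc probes were lower in ELA-EpiSC, and the Lamb1 symbols coincide at 14.90.

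The sequences of 3 probes are shown, each with a reading frame without a stop codon. They are the dimmer probe of Hspg2, which checks the member with the highest difference, the single probe of Lamb2, whose difference lay closest to 1, and the probe of Nid1 whose position spans an interval far longer than itself, as over an exon junction. The capitals in the Nid1 probe mark 45 bases that it shares with another, unnamed probe of the array.

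Hspg2: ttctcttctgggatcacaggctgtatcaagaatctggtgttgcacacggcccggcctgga

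Lamb2: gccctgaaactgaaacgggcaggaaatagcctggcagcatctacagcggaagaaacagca

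Nid1: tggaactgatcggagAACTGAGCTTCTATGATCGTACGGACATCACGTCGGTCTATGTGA

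Lama1 codes for the alpha 1 chain of the first laminin of the embryo. Its spot gave 1275 intensity units in EpiSC and 864 in ELA-EpiSC, over a local background of 24 on both. After normalization the level was 10.52 in EpiSC and 9.68 in ELA-EpiSC, which is a difference of -0.85 or 1.80-fold lower in ELA-EpiSC. Lama1 was the member with the lowest difference, and 5.93% of all genes had a lower one. The difference stayed below 0 under all 11 alternatives. Of these, the mean of all detected probes repeats the main value by construction for a member with 1 probe, such as Lama1. Spike-in scaling brought the difference of Lama1 to -0.14, which was -0.76 relative to the median of all genes on that scale. The probe lies on chromosome 17 at 68171924 to 68171983 of the mm9 assembly.

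Lama5 codes for the alpha 5 chain, which takes the place of alpha 1 in a laminin on which pluripotent cells are commonly grown. The spot gave 22067 units in EpiSC and 32392 in ELA-EpiSC. Its normalized level was 14.50 in EpiSC and 14.96 in ELA-EpiSC, so the difference was 0.46, with a range of 0.26 to 0.96 over the alternatives. Both alpha chains thus lay further from 0 than the spot SD, in opposite directions. The ratio of Lama1 to Lama5 fell by 1.31 on the log2 scale from EpiSC to ELA-EpiSC, a 2.48-fold change, with a spot SD of 0.14 for a ratio. A constant scaling cancels in such a ratio, and the value ran from -1.35 to -1.10 over 10 alternatives.

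Lamb1 codes for the beta 1 chain, a partner of both alpha 1 and alpha 5. Its signal was 30163 units in EpiSC and 31007 in ELA-EpiSC, and the normalized level was 14.90 on both arrays. The difference of 0.00046 was far under the spot SD. It had either sign among the alternatives, from -0.25 with scaling to the 75th percentile to 0.44 with spike-in scaling, so no direction can be given for Lamb1. Lamc1, the gamma 1 chain common to most laminins, gave 18219 units in EpiSC and 25276 in ELA-EpiSC. Its level was 14.24 and 14.57, a difference of 0.33 that was above 0 under all 11 alternatives and between 0.09 and 0.88. Lamb1 and Lamc1 therefore stood apart by -0.33 in their ratio, more than the spot SD of a ratio.

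Lamb2 codes for the beta 2 chain, found in laminins of the kidney filter and the nerve-muscle junction. The spot of the sequence printed above gave 596 units in EpiSC and 1530 in ELA-EpiSC. The level was 9.44 in EpiSC and 10.46 in ELA-EpiSC, with a difference of 1.03 or 2.04-fold, past 1 by less than the spot SD. It was past 1 under all 11 alternatives, with a lowest value of 1.00, and 4.33% of all genes had a higher difference. Lamb2 moved apart from Lamb1 by 1.03 in their ratio (1.01 to 1.27 over 10 alternatives). The signal of Lamb2 was thus higher relative to that of Lamb1 in ELA-EpiSC, on 1 probe of each gene.

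Nidogens bind the gamma 1 chain and join laminin to collagen IV. Nid2 gave 3948 units in EpiSC and 10229 in ELA-EpiSC, with levels of 12.11 and 13.21, a difference of 1.10 or 2.15-fold. It was past 1 under all 11 alternatives, and 3.85% of all genes had a higher difference. Nid1 had 3 probes. The brightest gave 873 units in EpiSC and 1985 in ELA-EpiSC, with levels of 9.97 and 10.84, a difference of 0.86 or 1.82-fold that passed 1 under median and spike-in scaling. The other probes of Nid1 were near background. The probe 1655 bases upstream gave 49.6 units in EpiSC and 63.9 in ELA-EpiSC over backgrounds of 28 and 23, and differed by 0.24. The junction probe printed above, on chromosome 13 from 13530138 to 13555992 (mm9), gave 37.9 and 41.8 units, was not well above background in EpiSC, and differed by 0.11. The unnamed probe that shares 45 of its bases stood at 6.20 and 6.29, as dim on both arrays. The offset of the background correction compresses differences at this brightness, and without it the upstream probe differed by 0.56. The value of Nid1 thus rests on its brightest probe. Averaging the 3 probes brought the difference of Nid1 down to 0.40.

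Hspg2 codes for perlecan, the large heparan sulfate proteoglycan of basement membranes, and had the highest difference of the 10 members. Its brighter probe gave 3511 units in EpiSC and 11610 in ELA-EpiSC. The levels were 11.93 and 13.39, a difference of 1.46 or 2.75-fold, and 2.15% of all genes had a higher one. The dimmer probe, printed above, lies 947 bases upstream on chromosome 4, at 137125445 to 137125504 (mm9). It gave 87.2 units in EpiSC and 272 in ELA-EpiSC, and differed by 1.18, or by 1.65 without the offset. Both probes thus passed 1, and Hspg2 did so under all 11 alternatives, with a range of 1.32 to 2.12. The gain relative to Lamc1 was 1.13 in their ratio.

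The 250 bases before the RefSeq start of Hspg2 are shown because it differed most among the members. They lie at chr4:137468553-137468802 on the plus strand of GRCm38.p6, a later build than the probe positions, and the capitals mark matches to GGGCGG, the GC box bound by Sp1-type factors.

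Hspg2 upstream: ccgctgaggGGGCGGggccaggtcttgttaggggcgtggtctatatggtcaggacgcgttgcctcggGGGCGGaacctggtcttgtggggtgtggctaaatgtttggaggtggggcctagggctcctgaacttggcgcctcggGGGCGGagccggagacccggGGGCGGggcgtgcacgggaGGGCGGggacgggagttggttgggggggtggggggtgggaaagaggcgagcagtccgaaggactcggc

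This stretch holds 5 matches, counted on both strands, and 1.93% of 32851 stretches of the same length and kind in the RefSeq table hold at least 5. Its GC content is 70.0%, against a median of 52.4% over all stretches, and the 1.93% is over stretches of any GC content. The table had an entry for 6 of 10 members and none for Lama1, Lamc1, Nid2 and Fn1. Lama5 held 4 matches, Lamb1 held 2, Nid1 held 1, and Lamb2 and Sparc held 0, while 32.7% of all stretches held at least 1. Among these 6, Lamb2 with 0 matches was past 1 and Lamb1 with 2 was not. A link between the matches and the differences was not tested.

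Fn1 codes for fibronectin, which cells bind through integrins such as that of Itga5 and Itgb1. Its probe, on chromosome 1 at 71632116 to 71632175 (mm9), gave 13410 units in EpiSC and 30904 in ELA-EpiSC. The level was 13.81 in EpiSC and 14.90 in ELA-EpiSC, with a difference of 1.08 or 2.12-fold, and 3.99% of all genes had a higher one. The difference passed 1 by less than the spot SD and came to 0.91 with processed signal and 0.92 with scaling to the 75th percentile. Relative to Lamc1 the gain was 0.75.

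Sparc had 3 probes that did not share a direction. The brightest gave 131695 units in EpiSC and 114771 in ELA-EpiSC, with levels of 16.98 and 16.84, a difference of -0.14 that spike-in scaling turned to 0.21. The probe 937 bases downstream gave 7108 and 5651 units, with levels of 12.92 and 12.34, which gave -0.59, or 0.07 with the spike-ins set equal. A probe 1167 bases downstream of the brightest gave only 117 and 204 units, with levels of 7.31 and 7.80, and differed by 0.49. None of the 3 shared a run of 20 or more bases with a probe of another gene name. No single direction can be given for Sparc.

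**Figure D2:**
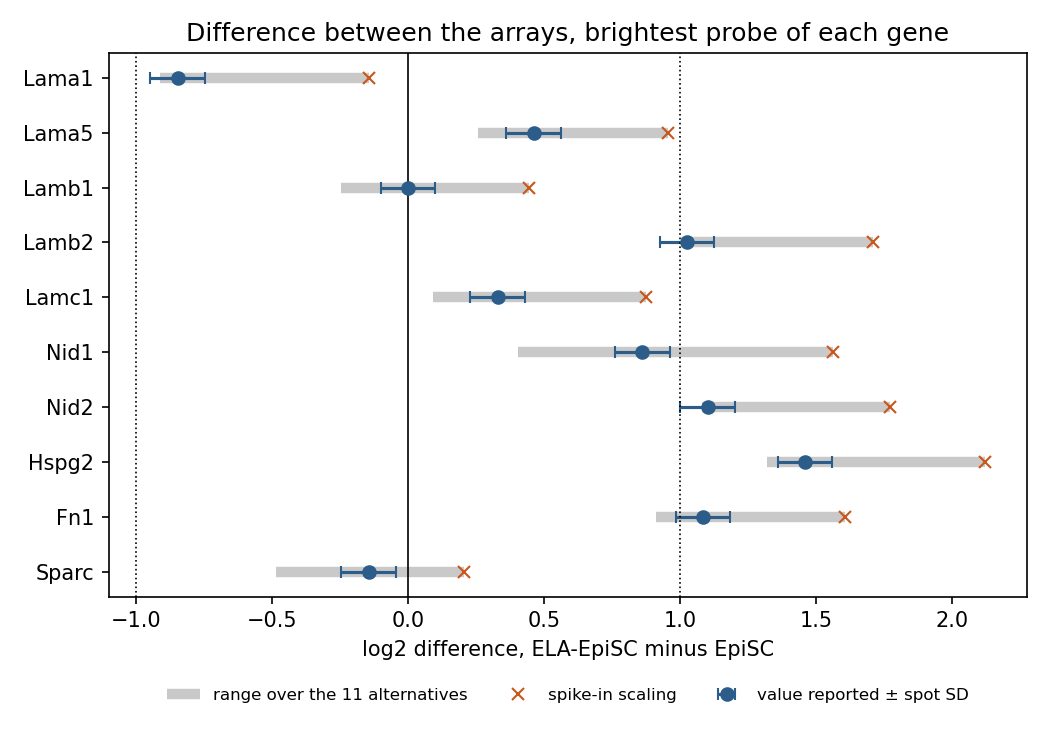
Log2 difference of each gene, ELA-EpiSC minus EpiSC, for its brightest probe (circles, with the spot SD of 0.10 as bar), the range over 11 alternatives (grey) and the value under spike-in scaling (crosses); dotted lines mark 1 and -1. Hspg2, Nid2, Lamb2 and Fn1 lie past 1, and the grey ranges of Lamb1 and Sparc cross 0.

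**Figure D3:**
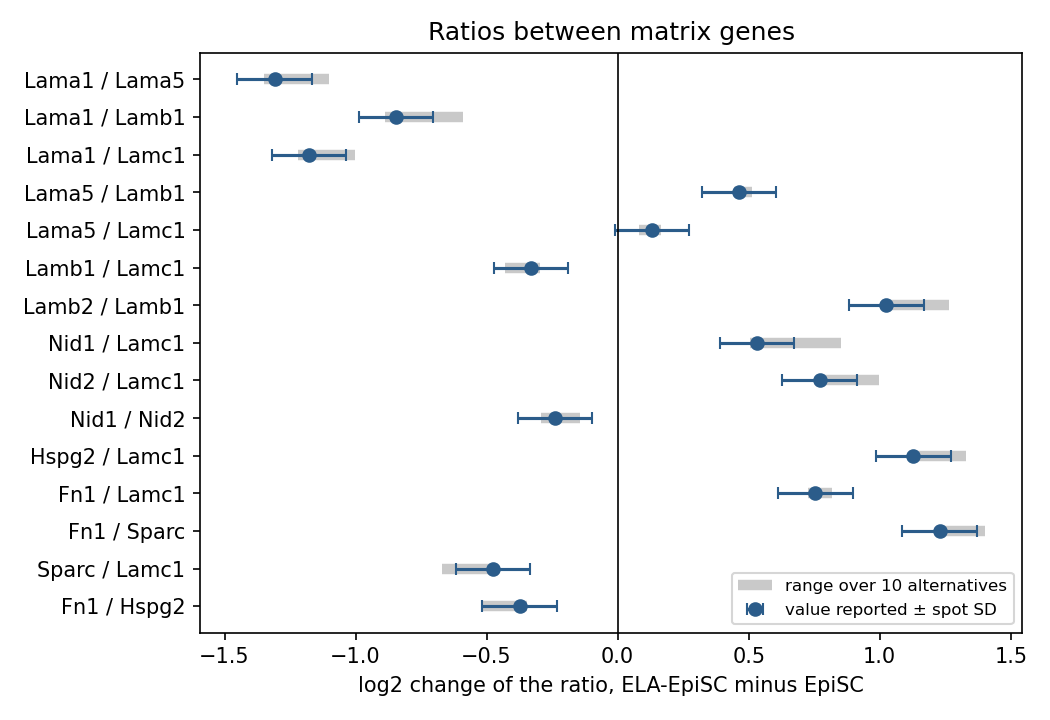
Change of the ratio between pairs of matrix genes from EpiSC to ELA-EpiSC (log2), from the brightest probe of each gene, with the spot SD of a ratio (0.14) as bar and the range over 10 alternatives in grey. The ratios of Lama1 to Lama5, Lamb1 and Lamc1 lie below 0, and those of Hspg2, Nid2, Nid1 and Fn1 to Lamc1 above it.

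The ratios to Lamc1 set the members side by side without any constant scaling. Relative to Lamc1, Hspg2 gained 1.13, or 0.85 on its dimmer probe, Nid2 0.77 and Fn1 0.75. Nid1 gained 0.53 on its brightest probe, but 0.07, under the spot SD of a ratio, with the mean of its detected probes. Lama5 gained 0.13, less than the spot SD of a ratio, whereas the ratio of Lama1 changed by -1.18. The ratio of Sparc to Lamc1 had either sign by probe, at -0.47, -0.92 and 0.16. With the brightest probe of each gene, all 15 ratios computed kept their sign under the 10 alternatives. These changed the signal, background or scaling and not the choice of probe. Alternatives that differed only by a constant, such as median and spike-in scaling, gave the same ratios by construction. The 10 are therefore not separate checks of a ratio.

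Other laminin chains were read next, as single genes. Lama3, the alpha 3 chain of epithelial laminins, differed by 0.61, with 1.62 on its dimmer probe. Lamb3, the beta 3 chain, differed by -0.09, which changed sign under spike-in scaling. Among chains with a mean log2 under 7.5, Lama4 stood at 6.73 and 8.04, a difference of 1.31, and Lama2 differed by -0.97.

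Other basement membrane components did not share the direction of perlecan and nidogen 2. Of 22 genes, 15 reached the minimum level, with 6 above 0 and 9 below it and a median of -0.33. This median became 0.37 under spike-in scaling. Smoc2, a calcium-binding matrix protein related to Sparc, was lower in ELA-EpiSC by -1.43 (11.46 against 10.03), and Tinagl1 was higher by 1.11 (8.32 against 9.43). Agrn, which codes for agrin, differed by 0.38 and Pxdn, the enzyme peroxidasin that crosslinks collagen IV, by -0.59. The collagen IV chains that nidogen binds gave -0.64 for Col4a1 and -0.33 for Col4a2, both above 0 under spike-in scaling.

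Receptors for laminin and fibronectin were mostly higher in ELA-EpiSC. Of 15 genes, 14 reached the minimum, 13 were above 0, 5 passed 1 upward and 0 downward, and the median was 0.70. Itgb3, a subunit of the vitronectin receptor, went from 7.23 in EpiSC to 9.84 in ELA-EpiSC and so differed by 2.60, against 0.18 on its second probe. Itga3, which with Itgb1 binds laminins with alpha 3 or alpha 5 chains, differed by 2.17, and Itga8, whose ligands include nephronectin and fibronectin, by 1.91. Itgb4, the partner of Itga6 in hemidesmosomes, differed by 1.43 and Bcam, a receptor for the alpha 5 chain, by 1.22. Itga6 itself differed by 0.14, with -0.65 on its other probe, and Dag1, which codes for dystroglycan, by 0.22. Itgb1 stood at 11.69 and 12.20, a difference of 0.52.

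Among 18 other matrix glycoproteins, 9 reached the minimum, 4 passed 1 upward and 0 downward, with a median of 0.34. These were Thbs1 (thrombospondin 1), which differed by 3.06 between 10.13 in EpiSC and 13.19 in ELA-EpiSC, Efemp1 (1.94), Spp1 (osteopontin, 1.78) and Fbn1 (fibrillin 1, 1.47). The highest signals in this list were those of Efemp2 and Thbs1, and Efemp2 differed by -0.26. Of 14 genes of matrix secretion and processing, only the protease gene Bmp1 passed 1, at 1.57, with 0.20 on its lowest probe, and the median was 0.38. Serpinh1, a collagen chaperone, differed by 0.47 and P4hb, a subunit of prolyl hydroxylase, by -0.25. In the list of proteoglycans and heparan sulfate enzymes, 10 of 12 genes reached the minimum, and the median was -0.10. Here the cell surface proteoglycan Gpc3 was lower in ELA-EpiSC by -1.95 (14.12 against 12.16) and Gpc4 by -1.54, with -0.51 on its other probe, on the opposite side of 0 from perlecan. Gpc1 differed by -0.31. Under spike-in scaling the values of Gpc1, Efemp2 and P4hb were above 0, as was the median of this last list (0.60, and 0.13 with median scaling), and Gpc4 (-0.86) and Smoc2 (-0.74) no longer passed 1.

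**Figure D4:**
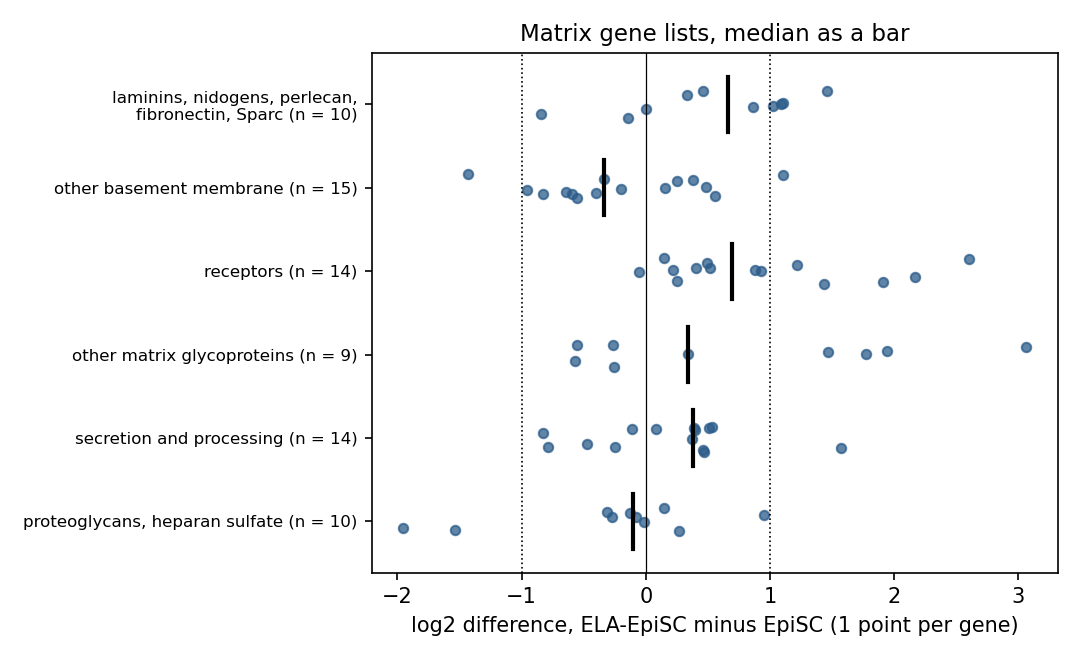
Log2 difference of each gene with a mean log2 of at least 7.5 (1 point per gene, n given for each list), with the median of each list as a black bar and dotted lines at 1 and -1. Medians run from -0.33 for other basement membrane components to 0.70 for the receptors.

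Cell type markers were also compared between the arrays. The epiblast list held 8 of 8 genes well above background on both arrays, all within 1 by their brightest probe. Its summed signal was 18.28 in EpiSC and 18.10 in ELA-EpiSC (log2). Such a sum is set mostly by the brightest probes of a list. Signals of different probes are not comparable, so no sum given here measures the amount of a cell type. In this list Dnmt3b went from 17.07 to 16.24, while 5 of the 8 genes were above 0 by their brightest probe. The lowest of 3 Dnmt3b probes gave -1.11, past 1 downward. Probes of Nanog ran from -0.31 to 0.32 and those of Otx2 from -0.28 to 0.0049. The brightest were Dnmt3b, at -0.84, and Otx2, at 0.0049. With processed signal and with 75th percentile scaling 1 gene, Dnmt3b, was past 1 downward (-1.22 at the lowest) and the median of the list turned from 0.08 to -0.24 and -0.20, while with spike-in scaling Utf1 was past 1 upward (1.05). Visceral endoderm markers were mostly lower in ELA-EpiSC. Of 10 genes all were detected in EpiSC and 8 in ELA-EpiSC, and the summed signal was 16.21 and 15.01. Of the 7 at the minimum level, Cubn (0.11) was above 0 and 6 were below 0, of which Apoa2 (-0.07) by less than the spot SD. Among these 6, 4 passed 1 downward. These 4 were Hnf4a (-5.12), Rbp4 (-3.23), Amn (-2.76) and Ttr, which was not well above background in ELA-EpiSC. At the main scaling Ttr was at least 10.74-fold lower there. This bound depends on the scaling, and the highest difference of Ttr over 10 alternatives was -2.97. The list's brightest genes were Apoe (-0.83) and Rbp4.

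Parietal and primitive endoderm, whose cells make much alpha 1 laminin and Sparc, had 13 of 13 markers detected on both arrays and a summed signal of 16.17 in EpiSC and 15.53 in ELA-EpiSC. Of the 11 at the minimum level, Pth1r (-2.62), Gata4 (-2.39) and Srgn (-1.21) passed 1 downward and Pdgfra (1.77) upward. The brightest were Foxa2 (-0.44) and Cited1 (-0.46), 2 of the 9 below 0. Col4a1 and Col4a2, given above with the basement membrane components, were also in this list and among these 9. The list is thus not separate from the matrix genes. Spike-in scaling turned Foxa2 and Cited1 to values above 0 and the median of the list from -0.56 to 0.08, and brought Srgn to -0.63. Mesenchyme and fibroblast markers, a usual source of fibronectin, were higher. Of 12 genes, 10 were detected in EpiSC and 11 in ELA-EpiSC, Lum in neither, and all 9 at the minimum level were above 0. Thy1 (0.05) and Col1a2 (0.08) were so by less than the spot SD, and 7 of the 9 were above 0 with processed signal. Col1a1 (3.72), Vim (2.52), Col5a1 (2.37) and Tagln (1.89) passed 1, and the summed signal was 15.13 in EpiSC and 17.07 in ELA-EpiSC. Vim and Tagln were the brightest of that list.

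Mesoderm and streak genes passed 1 in both directions. T (2.48), Mixl1 (1.97) and Wnt3 (1.42) were higher in ELA-EpiSC, while Mesp1 (-1.67) and Evx1 (-1.02) were lower. Evx1 passed 1 by less than the spot SD and no longer did so with processed signal, median scaling or spike-in scaling (-0.32). The brightest 2 of this list, Eomes and Kdr, differed by 0.32 and -0.43, of which the latter was 0.24 under spike-in scaling, and the second probe of Kdr by 1.49. In the neural list Nefl (2.18) and Nes (2.10) were higher, Tubb3 (0.72) and Map2 (0.60) were above 0 and Pax6 was not detected. The early neural gene Sox1 went from 8.32 in EpiSC to 8.23 in ELA-EpiSC. Its brighter probe thus gave -0.09 and its other probe 0.16, so no direction can be given for it. The summed signal of the list was 13.87 in EpiSC and 15.92 in ELA-EpiSC, with Nefl and Nes the brightest genes. Of 5 endothelial markers, Kdr alone, which was also in the mesoderm list, reached the minimum level. The next brightest was Pecam1 with 0.07, and Emcn was not detected. In such bulk RNA fewer cells of a type and less RNA per cell cannot be told apart, and the part of these cell types in the differences of the matrix genes was not tested.

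**Figure D5:**
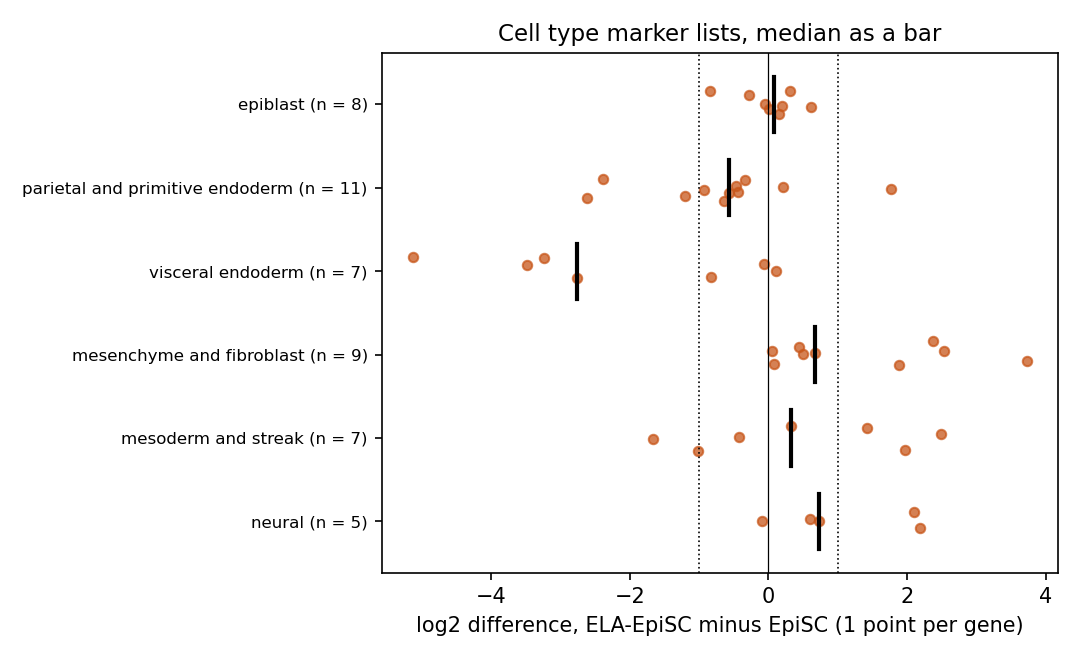
Log2 difference of each marker gene with a mean log2 of at least 7.5 (1 point per gene), by cell type list, with the list's median as a black bar and dotted lines at 1 and -1. Visceral endoderm lies lowest, with a median of -2.76, and the epiblast list lies within 1 at this scaling and by the brightest probe of each gene.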

How the data were processed

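RNA of EpiSC and of ELA-EpiSC was hybridized to 1 Agilent SurePrint G3 mouse array each. Spot intensity, linear and with local background and quality flags, was read from the deposited scanner files, which per the file headers were made with Feature Extraction 10.7.3.1, whereas the submitters' processing notes name version 9.1. A second deposited table holds log2 values that the authors background-corrected and quantile normalized with limma, and it served as an alternative.

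Mean spot signal was corrected with limma 3.58.1 (R 4.3.3) by normexp with an offset of 50. Control spots and spots marked as outliers were removed, the arrays were quantile normalized, and spots of 1 probe were averaged. A gene took its brightest probe well above background on at least 1 array in at least 0.5 of its spots. Levels of low genes are compressed by the offset. The pipeline was tested on simulated data. The precision is limited by the number of arrays. The thresholds of 1 and 7.5 are those of the study's methods for another comparison.

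Members, gene lists, ratios and alternatives were chosen with earlier results of these data known. Every probe of the members was shown. From each list, genes past 1 and the 2 brightest were named (brightness over both arrays). Apoa2, Col1a2, Col4a1, Col4a2, Cubn, Itgb1, Lama2, Lama3, Lama4, Map2, Nanog, Sox1, Thy1, Tubb3 and Utf1 were named after their values were seen. A further result is not reported here. Promoter stretches and gene names came from RefSeq tables of GRCm38.p6, and all 15 probes' accessions matched the member's symbol there.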

Additional observations from a re-analysis of the deposited data

How the results depend on the processing

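No paired analysis was possible because the groups shared only 1 replicate number. The count of members past 1 was 4 upward in ELA-EpiSC and 0 downward. It was 0 and 0 at a threshold of 2.5, and at 1.5-fold 1 member, Lama1, was higher in EpiSC, both by the construction of the threshold. Under the other alternatives the count higher in ELA-EpiSC stayed between 3 and 5. The median difference of the members, 0.66, was 0.80 with median scaling and 1.26 with spike-in scaling, which shift all genes, and 0.43 with the mean of all detected probes, which brings in the dim probes. Fn1 came under 1 with processed signal and with 75th percentile scaling, and Nid1 passed 1 with median and spike-in scaling; the cause of the former was not tested. With 1 array per group, no alternative could leave out a replicate.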
